A study of Bos taurus with 8 samples.

Results

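The 4 genes described here, DGAT1, FASN, SCD and ABCG2, are well known in dairy cattle for their part in the fat content or the secretion of milk. They were located in the deposited expression table by their intervals on the UMD3.1 cattle assembly, and each locus with an Ensembl transcript identifier that overlapped an interval was taken. The 4 intervals were overlapped by 6 such loci, out of 24886 loci with an identifier. FASN and SCD were each represented by 1 locus, whereas the DGAT1 and ABCG2 intervals were each covered to the same extent by 2 loci. The RNA-Seq data comprised 1 library for each of 8 tissues: mammary gland/parenchyma, uterus (intercaruncular), the stomach compartments rumen and abomasum, ileum, whole testes, frontal cortex and nucleated blood cells. No treatment was applied, and the RNA labels name the tissue but not the animal, its age or its breed. The mammary library was labelled as parenchyma, and no library was labelled as lactating gland. With 1 library per tissue there is no replicate check and no test between tissues, and differences between tissues include any difference between animals.

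Milk fat is made of triacylglycerols that the mammary epithelial cell assembles and releases as droplets. Fatty acid synthase, the product of FASN, builds saturated fatty acids from acetyl and malonyl units, and stearoyl-CoA desaturase, the product of SCD, places a double bond in them. Diacylglycerol O-acyltransferase, the product of DGAT1, adds the last acyl chain of a triacylglycerol. ABCG2 is an exporter of the ATP-binding cassette family that secretes small molecules, riboflavin among them, into milk. All 4 genes are also active outside the udder: fatty acid synthesis and desaturation supply membranes and myelin, DGAT1 serves fat absorption in the gut, and ABCG2 serves barrier tissues.

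Levels are given as deposited by the authors, in FPKM, the number of sequenced fragments per kilobase of transcript after scaling to the depth of the library. Depth, after the authors' scaling between libraries, was recovered from the deposited values and was lowest in mammary gland, at 6032000 reads, and highest in rumen, at 15512000, so an FPKM of 1 stood for 6.03 to 15.5 reads on 1000 bases of transcript. The intervals printed beside a level are 95% exact Poisson intervals for 1000 bases of transcript. They cover counting error only, not the spread between animals, and would be narrower for a longer transcript. Tissues said not to differ beyond counting error were not separated on 1000 bases, and a longer transcript could separate some of them. The label of the mammary library was checked at 3 casein loci on chromosome 6, CSN1S1, CSN2 and CSN1S2, which encode milk proteins. Their levels in that library were 2135, 2912 and 730 FPKM, and the highest level in any other library was 4.82, 3.99 and 2.07 FPKM. The fourth casein locus, CSN3, was left out because its interval of 106280 bases was far longer than the RefSeq gene of 13057 bases. The labels of the other 7 libraries were not checked against markers. In whole tissue, fewer cells of a type and less RNA per cell cannot be told apart.

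FASN stood out in mammary gland, where its level was 4.06 times that of the next tissue. The locus, ENSBTAT00000021260, lies on chromosome 19 from 51384817 to 51403627 and spans 18811 bases, against 18709 bases for the gene in RefSeq (assembly ARS-UCD2.0). Its FPKM was 176 in mammary gland (interval 166 to 187), 43.4 in abomasum, 42.6 in frontal cortex and 37.8 in whole testes. It was 35.5 in uterus, 23.9 in ileum, 21.0 in nucleated blood cells and 19.2 in rumen (17.1 to 21.5). Mammary gland was thus separate from the 7 other tissues, and these spread over a narrow range without a tissue in which FASN was silent. The counting interval of the ratio between mammary gland and abomasum ran from 3.66 to 4.50. Among the other tissues the intervals of uterus and ileum did not overlap (ratio 1.48, interval 1.24 to 1.79). This divides them into a higher group of abomasum, frontal cortex, whole testes and uterus and a lower group of ileum, nucleated blood cells and rumen. With libraries rescaled to the same sum, uterus was at 52.7 and ileum at 23.2 FPKM, farther apart than in the deposited scaling. Within either group, neighbours in the order did not differ beyond counting error.

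Within the mammary library, FASN ranked 348 among the 12740 genes that reached 1 FPKM there, above 97.3% of them. In the other libraries it stood above 61.2% (nucleated blood cells) to 83.1% (abomasum) of the expressed genes. Such ranks compare genes inside 1 library, and the shares depend on the scaling only through the limit of 1 FPKM.

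SCD followed a different order, with its highest level in abomasum, the glandular stomach, and its lowest in blood cells. The locus, ENSBTAT00000063883, lies on chromosome 26 from 21137944 to 21148319. Its FPKM was 144 in abomasum (interval 138 to 151), 73.9 in frontal cortex, 72.3 in mammary gland and 38.5 in ileum. It was 34.5 in whole testes, 26 in uterus, 23.0 in rumen and 4.69 in nucleated blood cells (3.54 to 6.08). The abomasum level was 1.95 times that of frontal cortex (interval 1.79 to 2.13), and rumen, the lowest solid tissue, was 4.90 times the blood cells (3.71 to 6.65). Frontal cortex and mammary gland could not be separated by counting error (ratio 1.02, interval 0.906 to 1.16), and both lay above ileum, with a ratio of 1.88 between mammary gland and ileum. In rank SCD stood above 95.6% of expressed genes in abomasum, above 92.4% in mammary gland, above 88.9% in frontal cortex and above 22.7% in blood cells.

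**Figure D1:**
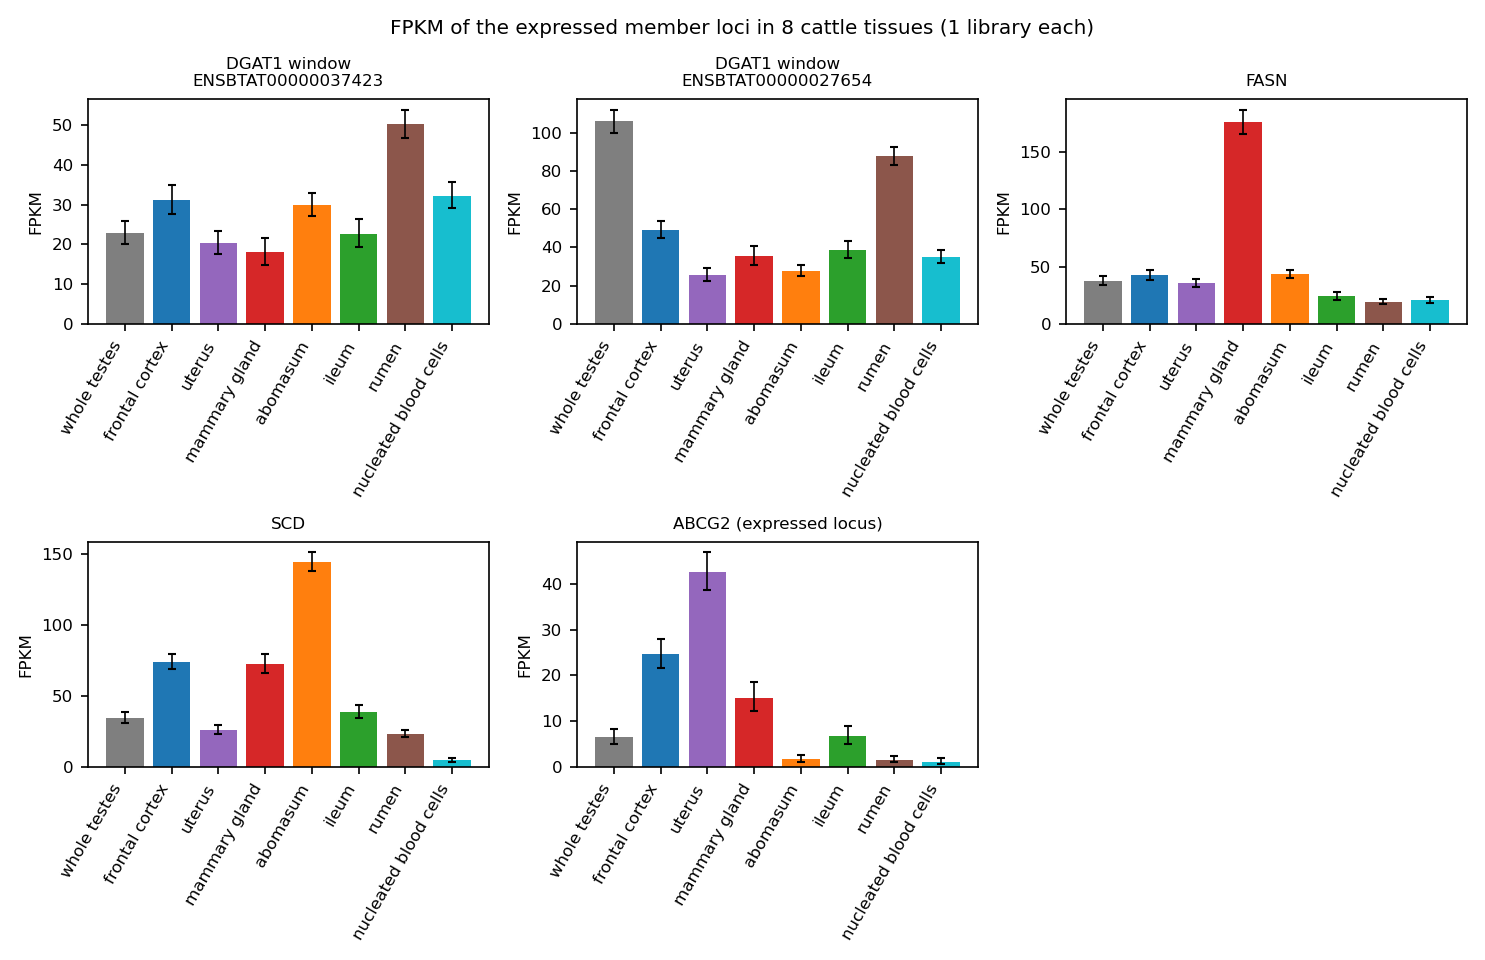
FPKM (vertical axes, from 0) of the 5 expressed loci in the 8 tissues (1 bar per library), with error bars for the 95% Poisson interval on 1000 bases of transcript. The tallest bar is mammary gland for FASN (176), abomasum for SCD (144), uterus for ABCG2 (42.7), rumen for ENSBTAT00000037423 (50.3; frontal cortex when rescaled to the same sum) and whole testes for ENSBTAT00000027654 (106).

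ABCG2 was the most uneven of the 4 genes and was highest in uterus. Both loci at its interval lie on chromosome 6 from 37902833 to 38030583, a span of 127751 bases against 127705 bases for the RefSeq gene. One of them, ENSBTAT00000059822, was listed at 0 in the 8 libraries, where a count of 0, taken to allow up to 3 reads on 1000 bases, leaves room for 0.193 FPKM in rumen and up to 0.497 FPKM in mammary gland. The values of ABCG2 below are those of the expressed locus, which carries ENSBTAT00000023552 and a second identifier. Its FPKM was 42.7 in uterus (interval 38.8 to 47.0), 24.7 in frontal cortex, 15.1 in mammary gland and 6.69 in ileum. It was 6.44 in whole testes, 1.64 in abomasum, 1.56 in rumen and 1.09 in nucleated blood cells (0.585 to 1.87). Uterus, frontal cortex and mammary gland were each separate from their neighbours in this order, with ratios of 1.73 (1.47 to 2.03) from uterus to frontal cortex and 1.64 (1.28 to 2.12) from frontal cortex to mammary gland. Ileum and whole testes did not differ beyond counting error, and neither did abomasum, rumen and blood cells, where the values rested on 21.9, 24.2 and 13.1 reads per 1000 bases. The uterus level was 39.1 times that of blood cells, compared with a factor of 30.8 from highest to lowest for SCD and 9.16 for FASN. These factors depended on the scaling. With libraries rescaled to the same sum, ABCG2 ran from 63.5 FPKM in uterus to 1.02 in rumen. SCD then ran from 138 in abomasum to 4.51 in blood cells, and FASN from 203 in mammary gland to 12.5 in rumen.

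The DGAT1 interval did not resolve to a single locus. On chromosome 14, ENSBTAT00000037423 and ENSBTAT00000027654 share the deposited interval from 1795238 to 1825814, which covers the whole DGAT1 window of 9414 bases. In RefSeq, DGAT1 (9977 bases) and its neighbour HSF1, a heat shock transcription factor gene (19741 bases), overlap by 134 bases and together span 29584 bases, against 30577 bases for the shared interval. The deposited table does not say which identifier belongs to which gene, so both are described and neither is called DGAT1. The library kit does not mark strand as far as the labels state, so reads from overlapping ends cannot be told apart. How reads were divided between loci that share an interval was not tested.

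At ENSBTAT00000037423 the FPKM was 50.3 in rumen (interval 46.9 to 54.0), 32.3 in nucleated blood cells, 31.1 in frontal cortex and 30.0 in abomasum. It was 22.8 in whole testes, 22.7 in ileum, 20.4 in uterus and 18.0 in mammary gland (14.8 to 21.7). Rumen was separate from blood cells (ratio 1.56, interval 1.38 to 1.77) and abomasum from whole testes (1.31, 1.12 to 1.55), while the other neighbours overlapped, uterus and mammary gland among them (1.13, 0.890 to 1.44).

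At ENSBTAT00000027654 the FPKM was 106 in whole testes (interval 99.7 to 112), 87.8 in rumen, 49.2 in frontal cortex and 38.5 in ileum. It was 35.6 in mammary gland, 34.9 in blood cells, 27.5 in abomasum and 25.7 in uterus (22.6 to 29.0). The 3 highest tissues were each separate from the next one down, and ileum, mammary gland and blood cells were not separable from each other in the order. Rumen was thus the highest tissue at one locus and the second at the other in the deposited scaling, and with libraries rescaled to the same sum it came after frontal cortex at both, with 32.7 against 40.9 FPKM and 57.1 against 64.7 FPKM. Mammary gland was the lowest tissue at ENSBTAT00000037423, with a counting interval that overlapped those of uterus, ileum and whole testes. The level of ENSBTAT00000027654 relative to ENSBTAT00000037423 within a library varied from 0.916 in abomasum to 4.63 in whole testes.

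Mammary gland was then compared with the median of the 7 other tissues on the scale of log2(FPKM + 1), and a locus was counted as called at 2-fold or more. FASN was higher by 2.28 on this log2 scale (4.85-fold), ABCG2 by 1.11 (2.16-fold) and SCD by 1.04 (2.06-fold). The 2 loci at the DGAT1 interval were at -0.71 and -0.11. Thus 3 of the 5 expressed loci were called higher in mammary gland, where 10.0% of the 17484 genes that reached 1 FPKM in any tissue were, and 0 were called lower, where 5.28% were. FASN ranked 456 of 17484 genes by this difference, ABCG2 1510 and SCD 1647, and the median difference over all genes was 0.00. The call of SCD lay close to the limit: it was 0.97 when uterus, rumen or blood cells were left out of the median and 1.23 when frontal cortex, abomasum or ileum was. ENSBTAT00000027654 changed to 0.11 when all libraries were rescaled to the same sum of FPKM, while ENSBTAT00000037423 stayed negative, at -0.52.

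**Figure D2:**
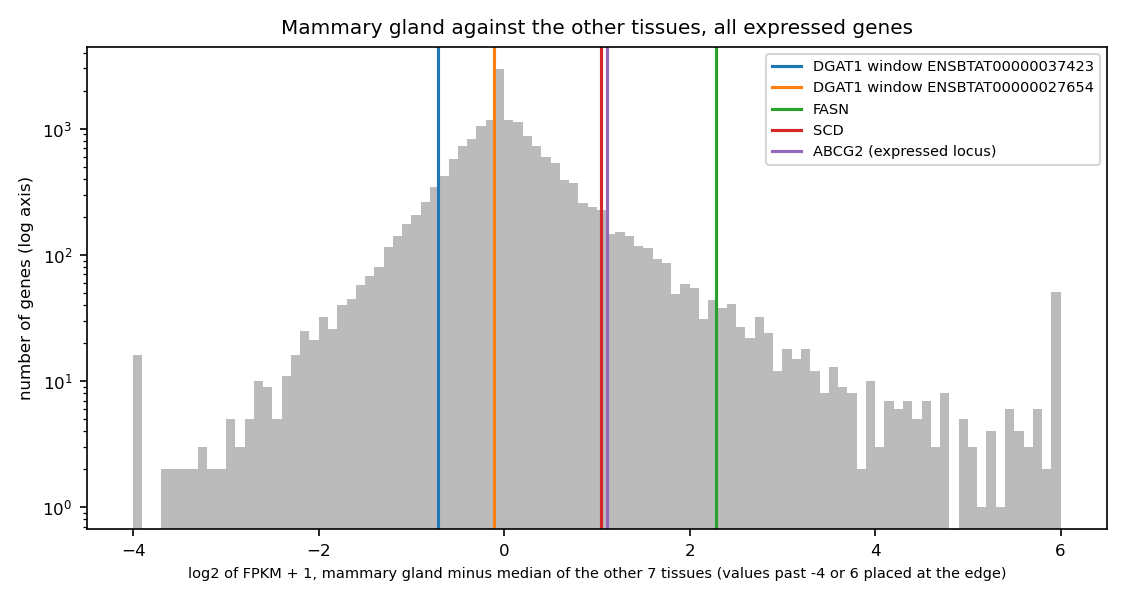
Number of genes (vertical axis, log scale) by their log2 difference in FPKM + 1 between mammary gland and the median of the other 7 tissues (horizontal axis), for 17484 genes, with lines at the 5 expressed loci. FASN lies in the right tail at 2.28, SCD (1.04) and ABCG2 (1.11) just past 2-fold, and the 2 loci at the DGAT1 interval at -0.71 and -0.11.

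The same comparison was made for each of the other tissues. In frontal cortex, ABCG2 (1.79) and SCD (1.08) were called higher, 2 of 5 loci against 20.7% of all genes, and 0 lower, against 15.3%. In rumen, both loci at the DGAT1 interval were called higher (1.11 and 1.28), 2 of 5 against 14.5%, and ABCG2 was called lower (-1.59), against 10.4%. The 2 loci called higher share 1 deposited interval, and how reads were divided between them was not tested. The rumen calls depended on the scaling. With libraries rescaled to the same sum, the loci at the DGAT1 interval were at 0.18 and 0.57 and neither was called, while SCD (-1.31), FASN (-1.66) and ABCG2 (-1.89) were called lower. The median over all genes shifted by -0.41 in rumen under that scaling, and the shares of all genes called higher and lower there became 6.86% and 24.4%. With median-ratio scaling the rumen calls were those of the deposited scaling. In abomasum, SCD was called higher (2.03), against 13.4% of all genes, and ABCG2 lower (-1.54), against 6.88%.

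In nucleated blood cells, SCD (-2.79) and ABCG2 (-1.88) were called lower, 2 of 5 loci against 17.2% of all genes, and 0 higher, against 14.3%. In uterus ABCG2 was called higher (2.56), against 12.4%, and 0 loci were called lower, against 6.70%. In whole testes ENSBTAT00000027654 was called higher (1.54), against 33.0%, and 0 loci lower, against 14.8%. Ileum was the tissue without a call in either direction, with differences from -0.64 for FASN to 0.15 for SCD, against 13.5% of genes called higher and 2.99% called lower. In the deposited scaling FASN was called in no tissue other than mammary gland, with -0.94 in rumen and -0.82 in blood cells. With libraries rescaled to the same sum it was also called lower in both (-1.66 and -1.01), against 24.4% and 18.8% of all genes. In uterus that scaling shifted the median over all genes by 0.41 and the shares called higher and lower to 23.1% and 3.44%, and ABCG2 was at 3.18. Of the 14 calls over 40 values, 12 were kept, 2 were lost and 3 were gained under it, and 14 were kept with median-ratio scaling.

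**Figure D3:**
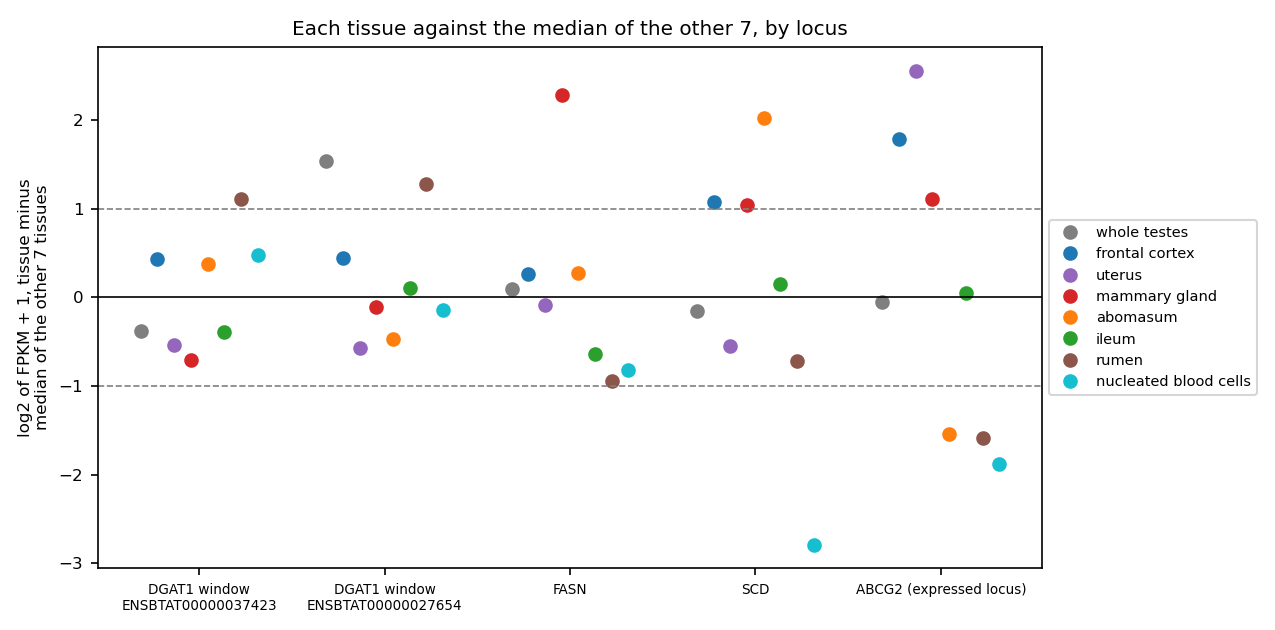
Log2 difference in FPKM + 1 (vertical axis) between each tissue and the median of the other 7, for the 5 expressed loci (horizontal axis, 1 point per library), with dashed lines at 2-fold. FASN has 1 point past the upper line, mammary gland at 2.28, whereas SCD runs from -2.79 in blood cells to 2.03 in abomasum and ABCG2 from -1.88 in blood cells to 2.56 in uterus.

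Evenness over the tissues was measured with the tau index on log2(FPKM + 1), which is 0 for the same level in all tissues and 1 for expression in a single tissue. Tau was 0.519 for ABCG2, 0.334 for FASN and 0.309 for SCD, against a median of 0.436 over 17484 genes. It was 0.175 and 0.208 for ENSBTAT00000037423 and ENSBTAT00000027654. With libraries rescaled to the same sum, tau of ENSBTAT00000037423 was 0.114, above 3.85% of genes in place of 14%. FASN, although prominent in mammary gland, was more even than most genes by this index, with a tau above that of 38.5% of them. Its level in the lowest tissue was still 19.2 FPKM. On this scale the same fold range gives a lower tau at a higher level, and the genes compared were not matched for level. Each of the 5 loci was highest in a different tissue. Of all genes, 4.77% had their highest level in mammary gland, 9.16% in abomasum, 7.46% in uterus, 12.1% in rumen and 30.8% in whole testes, the tissues in which a member was highest in the deposited scaling. In ileum, frontal cortex and blood cells, where no member was highest, the shares of all genes were 4.60%, 16.0% and 15.1%. The tissue with the highest level held 44.1% of the summed FPKM for FASN, 42.8% for ABCG2 and 34.6% for SCD.

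The balance of the members within a library was compared next, since a ratio inside 1 library is free of any scaling between libraries. The SCD level is that of the deposited locus, which is shorter than the RefSeq gene (10376 against 15210 bases). FASN exceeded SCD in 4 libraries, with a ratio of FASN to SCD of 4.48 in blood cells, 2.43 in mammary gland, 1.36 in uterus and 1.09 in whole testes. The ratio was below 1 in the other 4, at 0.837 in rumen, 0.622 in ileum, 0.577 in frontal cortex and 0.301 in abomasum. In whole testes and rumen the counting intervals of FASN and SCD overlapped. Such overlap does not by itself place a ratio within counting error. No interval of the ratio was computed within a library, so the side of 1 on which these libraries fell was not tested. The high ratio in blood cells went with a low SCD level (4.69 FPKM), while that in mammary gland went with a high FASN level (176 FPKM). FASN and SCD transcripts were thus in opposite balance in mammary gland and abomasum, the tissues with the highest level of each.

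**Figure D4:**
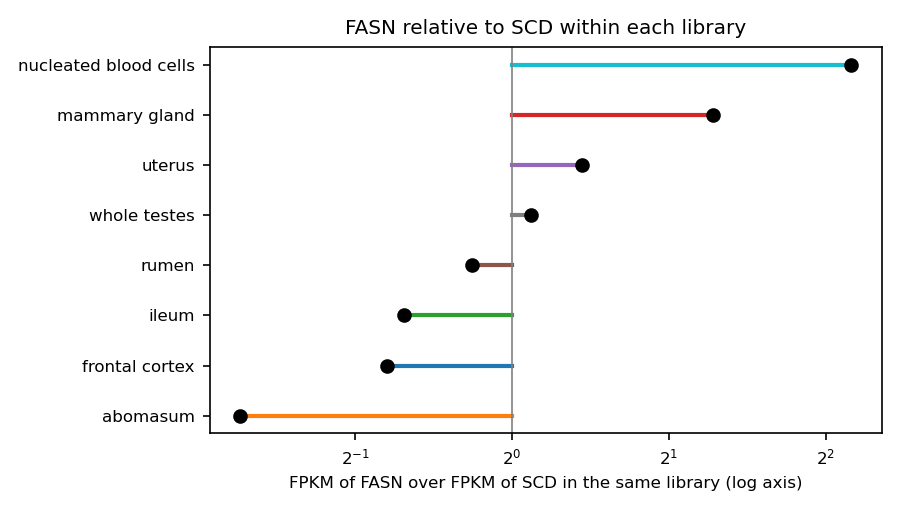
Ratio of the FPKM of FASN to that of SCD within each library (horizontal axis, log scale), with the 8 tissues ordered by the ratio and the line at 1 marking equal levels. Blood cells (4.48) and mammary gland (2.43) lie farthest to the right and abomasum (0.301) farthest to the left.

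The order of the members also changed between tissues. FASN was the highest of the 5 loci in mammary gland, SCD in frontal cortex and abomasum, and ABCG2 in uterus. ENSBTAT00000027654 was the highest in whole testes, ileum, rumen and blood cells. The counting intervals of the highest locus and the next one overlapped in uterus (ABCG2 and FASN), in ileum (ENSBTAT00000027654 and SCD) and in blood cells (ENSBTAT00000027654 and ENSBTAT00000037423). ABCG2 was the lowest of the 5 in the 7 tissues other than uterus. Its counting interval overlapped that of ENSBTAT00000037423 in mammary gland and frontal cortex, where no interval of the ratio was computed. In abomasum the SCD level was 88 times the ABCG2 level.

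Likeness between members was described by Pearson r of log2(FPKM + 1) over the 8 tissues, for 10 pairs. These values share the same 8 libraries and are given without a p-value. FASN and SCD had r = 0.57, and 3.44% of all genes were at least as like FASN and 6.61% at least as like SCD. The Spearman coefficient of this pair was 0.83, and r was 0.74 without mammary gland. FASN and ABCG2 had r = 0.45, with shares of 6.39% and 15.3%, and SCD and ABCG2 had r = 0.29, with shares of 23.2% and 26%. The last value was -0.14 without blood cells, 0.48 without uterus and 0.67 without abomasum, so it depended on single libraries. ENSBTAT00000037423 had negative values with FASN (-0.63), ABCG2 (-0.63) and SCD (-0.25), and ENSBTAT00000027654 had values from -0.24 to -0.13. The sign of 2 of the latter turned with 1 library left out, to 0.11 with SCD without abomasum and to 0.04 with ABCG2 without uterus. With libraries rescaled to the same sum, the values of ENSBTAT00000037423 were -0.31 with FASN, 0.05 with ABCG2 and -0.08 with SCD, and those of ENSBTAT00000027654 ran from -0.06 with FASN to 0.17 with ABCG2. The 2 loci at the DGAT1 interval had r = 0.39 with each other, with shares of 13.5% and 32.4%. This was -0.02 without rumen, 0.74 without whole testes and -0.02 with libraries rescaled to the same sum.

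For each locus, the gene with the most similar pattern among 17484 genes was looked up. For FASN it lies on chromosome 29 from 48209407 to 48517280 (r = 0.95), with 47.3 FPKM in mammary gland and at most 9.13 in the other tissues, and 24 genes reached r = 0.9. For SCD it lies on chromosome 6 from 89920582 to 89932628 (r = 0.95), with a far smaller range of 2.07 to 5.57 FPKM, and 23 genes reached 0.9. For ABCG2 it lies on chromosome 20 from 18505158 to 18534982 (r = 0.97), with 4.90 FPKM in uterus, and 64 genes reached 0.9. The corresponding genes for ENSBTAT00000037423 and ENSBTAT00000027654 lie on chromosome 13 from 66362540 to 66395549 (r = 0.96) and on chromosome 24 from 776264 to 806421 (r = 0.97), with 15 and 85 genes at r = 0.9 or more. The last of these was at 9.65 FPKM in whole testes, at 3.82 in rumen and at 0 in mammary gland and abomasum. These genes are given as the closest patterns only.

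The locus next to SCD followed it across tissues. ENSBTAT00000064053, on chromosome 26 from 21132751 to 21133969, ends 3974 bases before the SCD locus and was the nearest named locus on that side. Its FPKM was 114 in abomasum, 43.1 in mammary gland, 33.7 in whole testes and 25.9 in frontal cortex. It was 20.0 in ileum and in uterus, 4.71 in rumen and 0.207 in blood cells, which is below the level of 3 reads on 1000 bases. Its highest and its lowest tissues were therefore those of SCD, and r with SCD was 0.94 over the 8 tissues. Among 17484 genes, 2 others were more like SCD. The value ran from 0.85 without blood cells to 0.96 with each tissue left out in turn, an alternative added after the data were seen. The RefSeq gene SCD spans 15210 bases, 4834 more than the deposited SCD locus, and the neighbouring locus begins 5193 bases before the SCD locus. Whether both loci hold parts of 1 gene was not tested. The named locus on the other side lies 92250 bases away, was at most 0.156 FPKM in any tissue, and had r = -0.14.

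**Figure D5:**
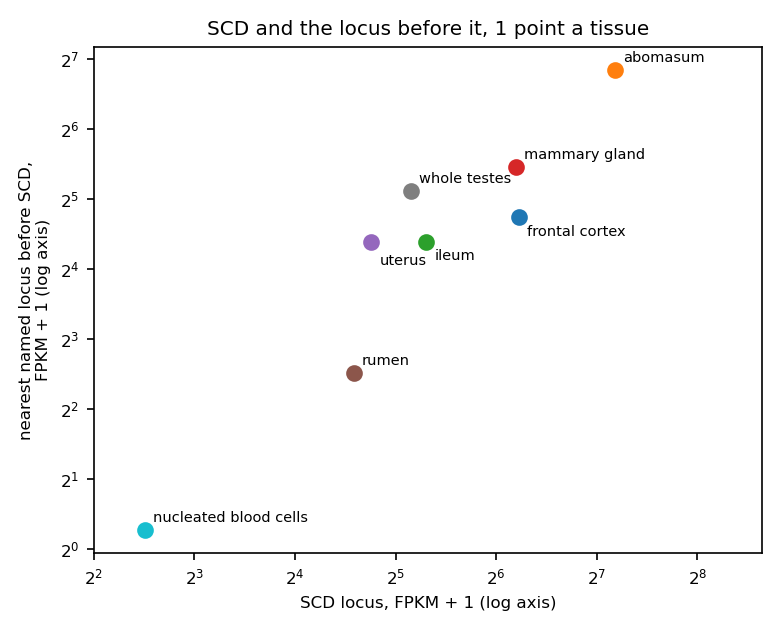
FPKM + 1 of the named locus before SCD (vertical axis, log scale) against FPKM + 1 of the SCD locus (horizontal axis, log scale), with 1 point for each of the 8 libraries. Both loci are highest in abomasum (114 and 144 FPKM) and lowest in nucleated blood cells (0.207 and 4.69 FPKM).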

How the data were processed

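RNA was measured in 8 cattle tissues with 1 library each, grouped by the tissue in the labels. The authors aligned filtered reads to UMD3.1 with TopHat2 2.0.13 and compared transcript levels with Cufflinks, and the deposited FPKM values come from that comparison table. Its columns of fold changes, test statistics, p-values and q-values were not used. The members and lists were chosen with earlier results of these data known. Loci were taken by overlap with fixed UMD3.1 intervals, and a tie in overlap was kept as both loci, which raised the planned pairs of members to 10. Genes were those with an identifier and an FPKM of at least 1 in any tissue, and the pseudocount was 1. Besides the members, the nearest named locus on each side, the gene closest in pattern and the caseins were named. No test was run. A list of lipid pathway genes was not analysed, because 0 identifiers matched the symbol table used here (RefSeq, ARS-UCD2.0), which was used for gene lengths and for the neighbours DGAT1 and HSF1.

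Depth was recovered from loci of 88 to 130 bases, whose FPKM values were whole multiples of 1 read for 97.7% to 100% of loci within a tolerance of 0.03. This rested on a fragment length of 200 ± 80 bases (mean and SD) and on a lower limit of 87 bases, the best of 16 tried. The result is a depth after the authors' scaling between libraries, not a number of sequenced reads. Calculations used Python 3.11.15, numpy 2.4.6, pandas 2.3.3 and scipy 1.17.1, and were tested on simulated data. Rescaled libraries, another pseudocount, other folds and filters, and tissues left out in turn were tried as alternatives, some of them added after the data were seen.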

Additional observations from a re-analysis of the deposited data

Results flagged for a closer look

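Transcripts without an identifier beside 2 of the genes were outside the comparisons, and 4 of their values rested on more than the 3 reads that a count of 0 allows. Before the DGAT1 interval on chromosome 14, a locus of 410 bases from 1793136 to 1793545 was at 17.6 FPKM in rumen, about 50.4 reads, and at 0 in the other 7 libraries. A second one, of 335 bases from 1791214 to 1791548, was at 44.6 FPKM in frontal cortex, about 48 reads, and at 3.34 FPKM in rumen, about 6 reads. Its value of 0.839 FPKM in whole testes, about 1 read, was below that limit, and it was at 0 elsewhere. The named locus before it, from 1782901 to 1790464, was also highest in frontal cortex, at 54.2 FPKM, with at most 1.59 FPKM in the other tissues. After the SCD locus on chromosome 26, a locus of 229 bases from 21148506 to 21148734 begins 186 bases past its end. It was at 31.7 FPKM in abomasum, about 15 reads, the tissue in which SCD was highest, while its 6.09 FPKM in frontal cortex, about 2 reads, was below the limit. Whether these short loci belong to the genes beside them was not tested.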

How the results depend on the processing

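No paired analysis was possible because the tissues were represented by a single library and nothing was tested. The log2 difference of mammary gland from the other tissues kept its sign under the alternatives tried, except at ENSBTAT00000027654. With all libraries rescaled to the same sum it was 0.11 there and 2.46 for FASN. With the loci of an interval summed it was -0.32 for ENSBTAT00000037423 and ENSBTAT00000027654 together. With the mean of log2 values in place of the median it was -0.36 for ENSBTAT00000027654 and 2.49 for FASN, and with median-ratio scaling it was 1.19 for SCD. Leaving out the other tissues one by one, a choice made after the data were seen, gave a range of the difference that ran from -0.73 to -0.53 for ENSBTAT00000037423, from -0.29 to -0.04 for ENSBTAT00000027654, from 2.23 to 2.53 for FASN, from 0.97 to 1.23 for SCD and from 1.09 to 1.67 for ABCG2.

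The percentile of tau among all genes, in the order ENSBTAT00000037423, ENSBTAT00000027654, FASN, SCD and ABCG2, was 14, 20.0, 38.5, 35.7 and 57.1 as reported. Among all genes above 0 it was 12.8, 18.4, 35.5, 32.9 and 52.7, and without whole testes it was 19.3, 26.2, 46.1, 42.9 and 62.6. With a pseudocount of 0.1 it was 22.2 for ENSBTAT00000027654, 41.1 for FASN and 38.3 for SCD. Rescaling, which was extended from the mammary comparison to the other results after the data were seen, gave 3.85, 16, 40, 32.9 and 60.1 for the same sum and 13.4, 18.2 and 39.9 for the first 3 loci by the median ratio. Over the 40 values of 5 loci in 8 tissues, 10 calls were higher and 4 lower at 2-fold, where 16.5% and 9.94% of the values of all genes were. These counts were the same with a pseudocount of 0.1, against 20.9% and 17%, and beside all genes with an identifier, against 11.6% and 6.98%. At 1.5-fold 10 were higher and 9 lower, against 24.5% and 18.5%, and at 4-fold 3 were higher and 1 lower, against 7.42% and 2.70%. Rescaled to the same sum, 8 were higher and 7 lower, against 17.1% and 11.5%.

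Spearman coefficients of 0.83 for FASN and SCD and of 0.40 for SCD and ABCG2 replaced r of 0.57 and 0.29. Rescaled to the same sum, r was -0.02 for ENSBTAT00000037423 and ENSBTAT00000027654. For ENSBTAT00000037423 it was -0.31 with FASN, -0.08 with SCD and 0.05 with ABCG2 (-0.50 by the median ratio), and for ENSBTAT00000027654 it was -0.06 with FASN and 0.17 with ABCG2. It was 0.64 for FASN and ABCG2 and 0.46 for SCD and ABCG2. With each tissue left out in turn, r ranged from 0.52 to 0.74 for FASN and SCD, from 0.35 to 0.60 for FASN and ABCG2 and from -0.14 to 0.67 for SCD and ABCG2. For ENSBTAT00000037423 it ranged from -0.02 to 0.74 with ENSBTAT00000027654, from -0.73 to -0.48 with FASN, from -0.39 to -0.13 with SCD and from -0.78 to -0.55 with ABCG2. For ENSBTAT00000027654 it ranged from -0.33 to -0.05 with FASN, from -0.46 to 0.11 with SCD and from -0.44 to 0.04 with ABCG2. The sign turned without rumen (-0.02), blood cells (-0.14), abomasum (0.11) or uterus (0.04). For these shifts the cause was not tested. The mammary library had the lowest depth after the authors' scaling, and levels below 0.497 FPKM on 1000 bases could not be told from 0 in it.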

Other observations

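The other neighbours of the 4 genes gave the following values. The nearest named locus before ABCG2, on chromosome 6 from 37876470 to 37899737, was also highest in uterus (18.3 FPKM) and next in frontal cortex (11.4 FPKM), with 2.55 to 4.74 FPKM elsewhere, and had r = 0.78 with ABCG2 over the 8 tissues. Of all genes, 1.92% were at least as like ABCG2. The nearest named locus after ABCG2 was highest in uterus too, at 12.7 FPKM, and had r = 0.50. Beside FASN, the nearest named loci had r = 0.20 before and 0.49 after it. Their mammary levels, 13 and 41.8 FPKM, lay far below the 176 FPKM of FASN. On chromosome 14, 2 named loci share an interval that begins 147 bases past the end of the interval shared by ENSBTAT00000037423 and ENSBTAT00000027654. Both were highest in rumen in the deposited scaling, at 31.0 and 3.22 FPKM. With libraries rescaled to the same sum they were highest in frontal cortex (29.5 FPKM) and in mammary gland (2.33 FPKM). The first had r = 0.68 with ENSBTAT00000037423 and 0.56 with ENSBTAT00000027654, and the second had r = 0.27 and 0.63.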
